A study of Mus musculus with 18 samples.

Results

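The genes described are the nuclear genes for subunits of oxidative phosphorylation, measured by RNA sequencing of mouse bone marrow-derived macrophages (BMDMs). They were chosen by name. Every row of the deposited table whose gene name begins with Ndufa, Ndufb, Ndufc, Ndufs, Ndufv, Uqcr, Atp5 or Cox followed by a digit from 4 to 8 was taken, together with Sdha, Sdhb, Sdhc and Sdhd, and names beginning with Ndufaf were left out. The rule found 85 of the 21734 genes of the table, and 79 of these were among the 11357 genes that passed the filter on low counts and were tested. The other 6, Cox4i2, Cox6b2, Cox7b2, Cox8b, Cox8c and Ndufa4l2, reached at most 5 counts in any library, so their response was not measurable at this depth. The names put 36 tested members in complex I, 4 in complex II, 8 in complex III, 14 in complex IV and 15 in complex V. The remaining pair, Atp5s and Atp5sl, carry the Atp5 name without being subunits of the ATP synthase.

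The libraries came from macrophages of 3 genotypes on a 129/B6 mixed background, taken, per the labels, from mice 6 to 7 months old, 3 mice per genotype. Wild-type (WT) mice carry the normal mir-146a gene, KO mice lack it, and 3′F mice (3F in the labels) keep its seed but have positions 13 to 20 of the mature strand exchanged with the opposite strand of the hairpin. Each engineered allele came from its own V6.5 embryonic stem cell line, and the mice were backcrossed 3 times to C57BL6/J, so the allele and whatever its line still carries around it cannot be told apart. Marrow was cultured for 8 to 9 days with 10 ng/ml M-CSF, the growth factor that drives macrophage differentiation, and the cells were then left resting or given 1 ng/ml LPS for 16 h. The 6 groups held 3 libraries each, lettered A to C in the labels, and every p-value measures the spread between these libraries. With 3 mice per genotype, resting and LPS-treated libraries share mice, and the main fit did not pair them.

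Oxidative phosphorylation is the process by which mitochondria turn the energy of food into ATP. Complexes I and II take electrons from NADH and from succinate, complexes III and IV pass them on to oxygen while pumping protons across the inner membrane, and complex V, the ATP synthase, lets the protons flow back to make ATP. Most subunits are encoded in the nucleus and the remainder in the mitochondrial genome. Macrophages given LPS are known for turning towards glycolysis and for changes in succinate oxidation and in the respiratory chain.

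The mature miR-146a-5p lies at chr11:43374435-43374456 on the minus strand (GRCm38.p6, sequence from RefSeq). It is shown first with its seed in capitals, the part by which targets are recognised, and then with positions 13 to 20 in capitals, the part exchanged in the 3′F allele.
miR-146a-5p, seed: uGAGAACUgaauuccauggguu
miR-146a-5p, positions 13 to 20: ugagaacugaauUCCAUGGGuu
The microRNA itself was not analysed here.

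A match to the seed of at least 7 bases stood in the 3′ UTR of 7 of the 79 tested members, 8.86%, against 22.0% of the 11261 tested genes with an annotated 3′ UTR. The members' 3′ UTRs are short, with a median of 235 bases for the longest one of each gene against 1171 bases over all tested genes. The 7 members were Ndufb2 and Ndufb8 of complex I, Sdhd of complex II, Uqcrfs1, Uqcrh and Uqcrq of complex III, and Cox7a2l, which joins complexes into supercomplexes. A full match of 8 bases stood in Ndufb8 at chr19:44549272-44549279 and in Uqcrq at chr11:53428107-53428114, both on the minus strand of GRCm38. The 20 bases before each match are shown in lower case and the match in capitals, because these are the members whose sequence offers the microRNA the longest seed pairing.
Ndufb8: ctttggaggtaacagtctaaAGTTCTCA
Uqcrq: gatcgctagctagtactaaaAGTTCTCA
Neither passed the test between KO and WT. KO minus WT was -0.30 (SE 0.26) for Ndufb8 and -0.37 (SE 0.30) for Uqcrq on the log2 scale at rest, and -0.13 (SE 0.26) and -0.22 (SE 0.29) after LPS. Over the 7 members with a match the median KO minus WT was -0.12 at rest and -0.02 after LPS, beside -0.16 and -0.05 over the 72 members without one. A sequence match is a description and not evidence of binding.

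Promoter windows of 250 bases before to 50 bases after the transcription start were held for 64 tested members. They were searched on both strands for the letters CCGGAAG (ETS factors such as GABP), GCGCATGC (NRF1, a regulator of nuclear genes for mitochondria) and AAGATGGC (YY1). The ETS letters stood in 23.4% of the members' windows against 19.6% over the 8907 windows of tested genes, the NRF1 letters in 15.6% against 5.86%, and the YY1 letters in 12.5% against 5.10%. At least 1 of the 3 stood in 28 of the 64 windows, 43.8%, against 27.9% of tested genes and 13.3% of all 32851 windows. Sdhb, the iron-sulfur subunit of complex II, held both ETS and NRF1 letters, which are in capitals below (chr4:140961021-140961320, plus strand, GRCm38.p6). Cox5a, a structural subunit of complex IV, held none of the 3 (chr9:57520982-57521281, plus strand). It is shown because it was the only member called higher with LPS in all 3 genotypes in the fit of all libraries.
Sdhb promoter: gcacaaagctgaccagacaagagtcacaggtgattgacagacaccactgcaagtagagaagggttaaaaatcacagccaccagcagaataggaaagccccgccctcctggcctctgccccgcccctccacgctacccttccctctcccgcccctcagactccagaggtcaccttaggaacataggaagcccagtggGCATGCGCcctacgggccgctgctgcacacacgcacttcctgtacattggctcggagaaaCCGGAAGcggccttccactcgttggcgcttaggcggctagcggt
Cox5a promoter: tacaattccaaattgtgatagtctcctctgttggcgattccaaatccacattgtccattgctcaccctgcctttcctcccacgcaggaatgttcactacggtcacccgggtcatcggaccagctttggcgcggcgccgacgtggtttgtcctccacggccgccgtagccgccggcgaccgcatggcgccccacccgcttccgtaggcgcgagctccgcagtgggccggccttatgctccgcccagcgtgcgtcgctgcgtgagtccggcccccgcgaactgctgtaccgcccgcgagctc

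A pair of libraries stood apart, and the members' results that rest on them are given with and without them. The library of resting 3′F replicate 3 had the lowest depth, 4071084 counts, while the other 17 had 7995881 to 19818043. The members took 1.51% of its counts against 0.685% to 1.02% in the others, and their median deviation from each member's mean was 0.74 on the log2 scale against -0.28 to 0.16 elsewhere. Short transcripts were high in it as a class. Its median deviation was 0.78 over genes under 1 kb of exon, 0.27 over genes of 1 to 2 kb and -0.17 over genes of more than 4 kb, and ribosomal protein genes took 5.81% of its counts against 2.04% to 3.03%. Of the tested members, 39 are under 1 kb, against 607 of all 11357 tested genes. The library labelled resting KO replicate 3 stood apart in another way. Over 394 genes that LPS raised more than 4-fold in WT it lay at a median of 91.3% of the WT response, where resting KO replicates 1 and 2 lay at 30.1% and 23.6% and the LPS-treated KO libraries at 119% to 125%. Over 101 genes that LPS lowered as much in WT it lay at 57.5%, between the other resting KO libraries at 18.7% and 18.8% and the LPS-treated ones at 123% to 137%. Its values thus went in part against its label as resting, and whether the label is right was not settled. What set either library apart was not tested.

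**Figure D1:**
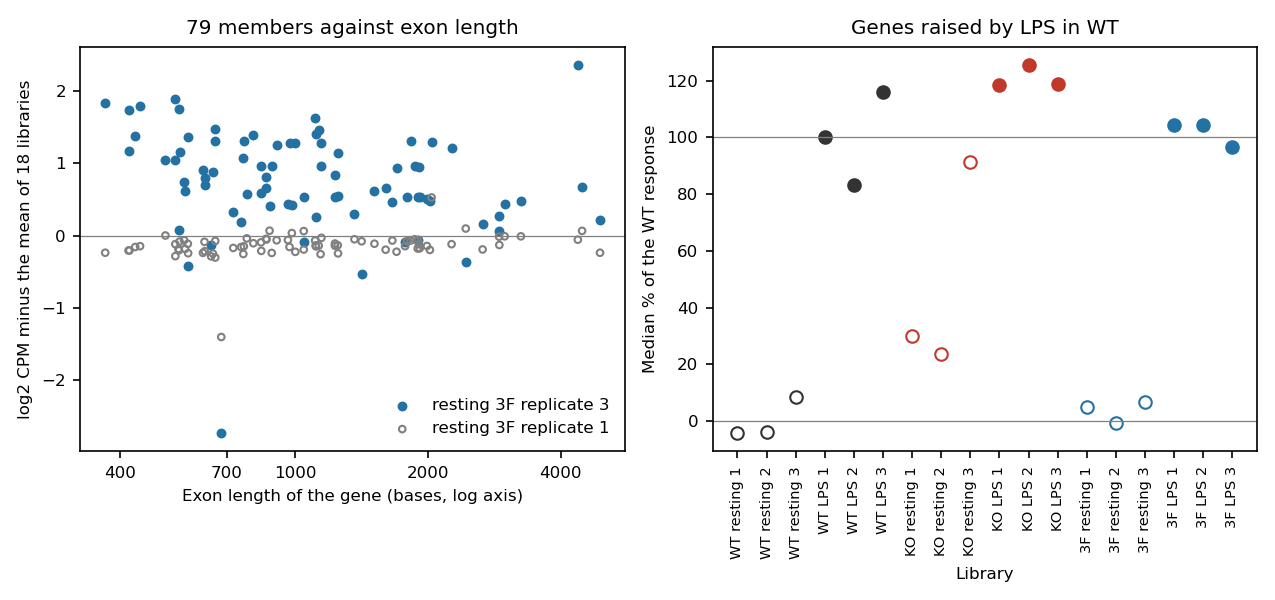
The left panel plots each tested member's log2 deviation from its mean over the 18 libraries against its exon length in bases (log axis) for resting 3′F replicate 3 and, for comparison, replicate 1. The right panel gives for each library the median percent of the WT LPS response over 394 genes raised in WT. Short members lie high in replicate 3 of resting 3′F, and the library labelled resting KO replicate 3 lies at 91.3% over these raised genes. Over the 101 lowered genes, which are not plotted, it lay at 57.5%.

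The cells carried the RNA of macrophages. All 8 macrophage markers (Csf1r, Adgre1, Itgam, Cd68, Lyz2, Mertk, Fcgr1 and Cd14) were present, with a summed level of 31771.5 to 87899.8 CPM per library, where CPM are counts scaled to a library of 1000000. The 7 neutrophil markers summed to 13.4 to 66.0 CPM, and markers of dendritic cells, B cells, T and NK cells, stroma, erythroid cells and mast cells to at most 4.05 CPM per list. In bulk RNA, fewer cells of a type and less RNA per cell cannot be told apart, and neither can a change in the members and a change in the rest of the RNA they are scaled against.

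Per kb of exon the complexes were read at unequal levels. The median over members was 46.0 CPM per kb for complex I, 102 for complex II, 125 for complex III, 136 for complex IV and 119 for complex V, averaged over the 18 libraries. The highest members of each were Ndufa2 (159.9 CPM per kb), Sdhb (151), Uqcrh (205), Cox4i1 (642), the regulatory subunit where ATP inhibits complex IV, and Atp5b (428), the catalytic beta subunit of the ATP synthase. Lengths are those of all annotated exons together, which lowers the level of a gene with a rarely used long exon.

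Where a subunit has several genes, the macrophages used mainly the widely expressed one. Cox4i1 stood at 642 ± 230 CPM per kb (SD, n = 18 libraries) and Cox4i2, the lung and hypoxia form, at 0.14 ± 0.22. Cox6a1, the liver form, stood at 137 ± 20.8 and Cox6a2, the heart and muscle form, at 1.70 ± 1.34. Cox7a2 stood at 186 ± 71.7, the muscle form Cox7a1 at 7.64 ± 4.92, and Cox7a2l at 137 ± 36.1. Cox8a stood at 160.3 ± 14.9, while the muscle form Cox8b had no count in any library, a count that allows up to 3 per library. For the c subunit of the ATP synthase, whose ring turns with the proton flow, Atp5g3 stood at 176 ± 21.9, Atp5g2 at 23.2 ± 3.92 and Atp5g1 at 6.77 ± 0.900 CPM per kb. Exon lengths were 724 bases for Atp5g3, 1046 for Atp5g2 and 4912 for Atp5g1, and in counts Atp5g1 was above Atp5g2 in every library. The 3 genes make the same mature protein from similar coding sequences, so reads that fit several of them may have been dropped.

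**Figure D2:**
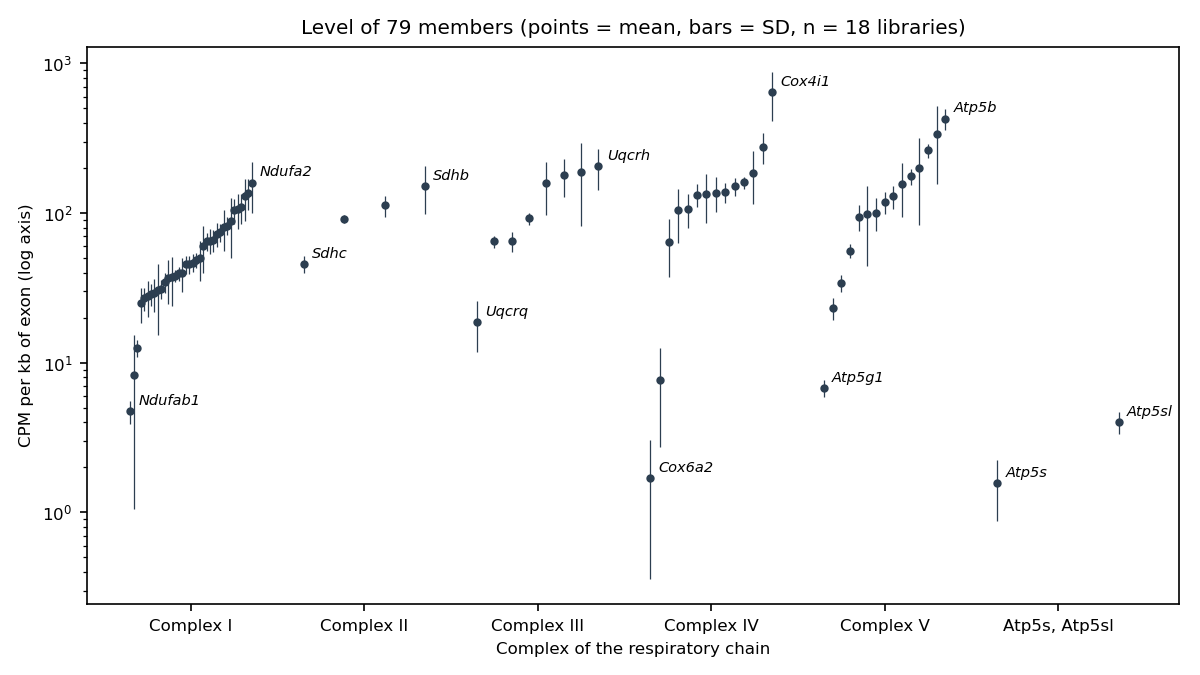
Each point is 1 tested member, placed by complex, at its mean level over the 18 libraries in CPM per kb of exon (log axis), with the SD where it can be drawn. Cox4i1 of complex IV is highest at 642, and Cox6a2 and Atp5s are lowest at 1.70 and 1.56.

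The plot of every member in every library sets them side by side. Resting 3′F replicate 3 is the column where all 5 complexes are high, with summed levels of 3755 CPM for complex I, 1088 for II, 1399 for III, 3454 for IV and 4639 for V. In the other 17 libraries these sums ranged from 1719 to 2351, 612 to 850.2, 633 to 849, 1413 to 1851 and 2305 to 3179 CPM.

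**Figure D3:**
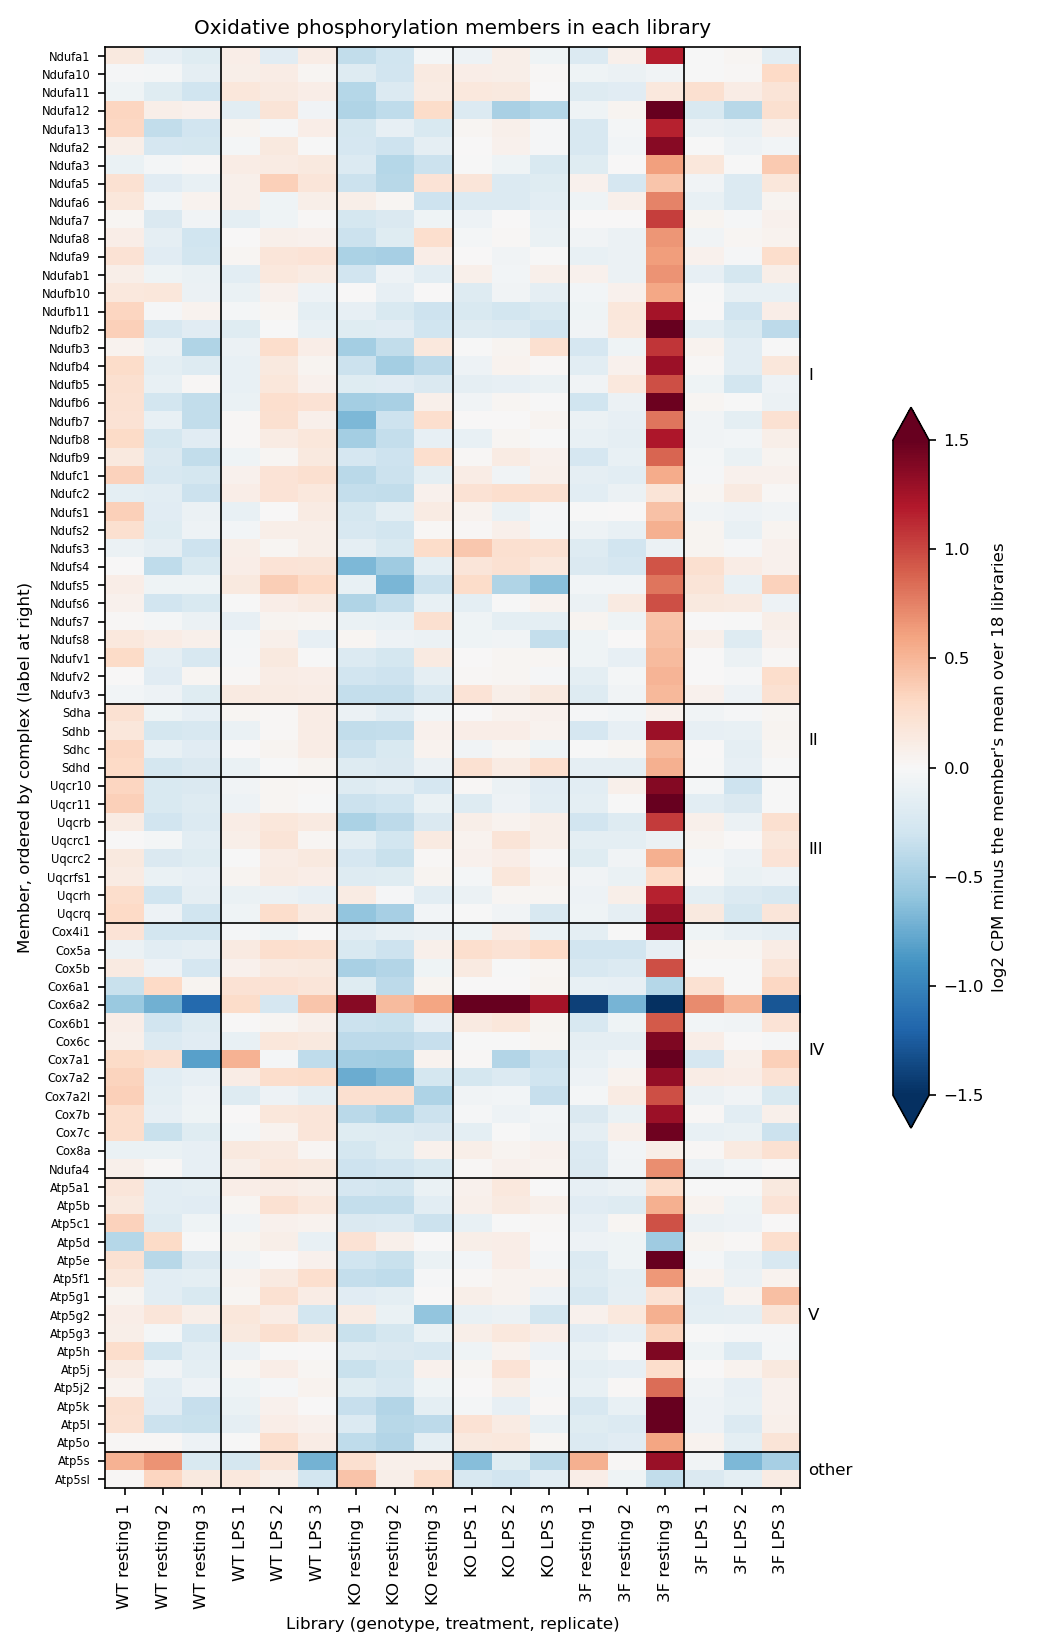
Rows are the 79 tested members grouped by complex and columns the 18 libraries grouped by genotype and treatment. Colour is log2 CPM minus the member's mean over the libraries, saturating at 1.5 in either direction. The resting 3′F replicate 3 column is raised in most rows, with a median of 0.74.

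The first question of the design is how WT macrophages responded to LPS. Few members passed the test. Of the 79 members, 2 rose and 0 fell at an adjusted p under 0.05 (edgeR quasi-likelihood test over all 11357 genes), while 28.5% of all tested genes were called. Only 3 members reached an unadjusted p under 0.05, beside 38.9% of all tested genes, and DESeq2 called 2 members in the same comparison. The median member stood at 0.12 on the log2 scale and the median gene at 0.02, and the 95% interval of the change lay within 1 log2 unit of 0 for 75 members and within 0.5 for 32.

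Cox5a stood at 90.5, 86.4 and 87.4 CPM in the 3 resting WT libraries and at 105, 114 and 114 CPM after LPS. Every LPS library was above every resting one, and the rise was 0.33 (SE 0.10, adjusted p = 0.0163, edgeR), or 1.26-fold. The call was lost with upper-quartile scaling (0.20, adjusted p = 0.116), with no filter on low counts (0.29, adjusted p = 0.12) and with a correction for gene length (0.26, adjusted p = 0.184), and it was also lost without resting replicate 2 (adjusted p = 0.0539) or LPS replicate 3 (adjusted p = 0.0571). Ndufc2, an accessory subunit in the membrane arm of complex I, stood at 50.1, 49.6 and 44.4 CPM at rest and at 59.7, 64.2 and 62.2 CPM after LPS. These groups did not overlap either, with a rise of 0.37 (SE 0.12, adjusted p = 0.0269). In WT the states did not overlap in 15 of the 79 members, beside 47.5% of all tested genes. Its call was lost under the same 3 settings (adjusted p from 0.0631 to 0.119) and without resting replicate 3 or LPS replicate 2 or 3 (0.0677 to 0.0997). An overlapping processed pseudogene, Gm16053, lies on the same strand as Ndufc2, so some reads may be shared.

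Complex II, which is also the succinate dehydrogenase of the tricarboxylic acid cycle, held no call. The catalytic subunit Sdha stood at 311, 254 and 245 CPM at rest and at 272, 269 and 287 CPM with LPS, a difference of 0.03 (95% interval -0.17 to 0.23, adjusted p = 0.844, edgeR). For Sdhb the difference was 0.11 (interval -0.50 to 0.71), and for the membrane anchors Sdhc and Sdhd it was 0.02 (interval -0.28 to 0.33) and 0.02 (interval -0.33 to 0.37). All 4 genes overlapped between the states. The tissue forms of complex IV were likewise not called in WT: Cox4i1 stood at 0.06, Cox6a1 at 0.19, Cox7a1 at 0.09, Cox7a2 at 0.18, Cox7a2l at -0.20 and Cox8a at 0.21, and Cox6a2, on 3 to 16 counts per WT library, at 1.14 (SE 0.54, adjusted p = 0.131). The c subunit genes stood at 0.24 for Atp5g1, -0.11 for Atp5g2 and 0.23 for Atp5g3, and Ndufa4, now placed in complex IV, at 0.14.

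The shared estimate of the spread rested in part on the libraries that stood apart. Without resting 3′F replicate 3 and the library labelled resting KO replicate 3, a choice made after seeing the data, 6 members rose with LPS in WT and none fell, 7.59% of the members beside 41.9% of all genes. These were Cox5a at 0.30, Ndufc2 at 0.33, Ndufs4 at 0.32, Ndufa11 at 0.28, Ndufs3 at 0.21 and Atp5g3 at 0.20, so all were changes below 1.3-fold. Ndufs3 and Ndufs4 belong to the peripheral arm of complex I, and Ndufa11 sits in its membrane arm. Without WT LPS replicate 3 the count of calls in the fit of the remaining libraries was 0.

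In KO macrophages 4 members rose with LPS and 1 fell, beside 26.9% of all tested genes called. Those that rose were Ndufv3, Ndufc2, Cox5a and Atp5g3, and Atp5sl fell. The median member stood at 0.22, and 66 of the 79 were above 0.

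Ndufc2 stood at 43.4, 43.0 and 58.0 CPM in resting KO libraries and at 64.9, 66.1 and 65.5 CPM after LPS, a rise of 0.45 (SE 0.12, adjusted p = 0.00929, edgeR). Cox5a stood at 81.8, 77.5 and 101 CPM at rest and at 114, 111 and 118 CPM after LPS, a rise of 0.40 (SE 0.10, adjusted p = 0.00555). In both genes the third resting library, the one that stood apart, was the highest of its group and nearest to the LPS values. Neither gene overlapped between the states, which held in KO for 34 of the 79 members and 42.7% of all tested genes. Cox5a kept its call without each of the 6 libraries in turn, and Ndufc2 lost it without resting replicate 1 (adjusted p = 0.054) or 2 (adjusted p = 0.0533).

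Ndufv3, an accessory subunit near the NADH-binding site of complex I, stood at 54.2, 54.2 and 58.5 CPM at rest and at 80.2, 73.8 and 76.9 CPM after LPS (0.47, SE 0.14, adjusted p = 0.0166, edgeR). Atp5g3 stood at 100.3, 105 and 119 CPM and then at 135, 141 and 136 CPM (0.35, SE 0.12, adjusted p = 0.0426). The states did not overlap in either gene. Atp5sl, which despite its name is no ATP synthase subunit, stood at 13.1, 10.3 and 11.8 CPM and then at 8.20, 7.89 and 8.63 CPM, and it fell by 0.51 (SE 0.16, adjusted p = 0.0233). Each of the 3 lost its call without 1 of several libraries: Ndufv3 without resting replicate 1 or 2 or LPS replicate 1 (adjusted p up to 0.0571), Atp5g3 without any library but resting replicate 3 (up to 0.159), and Atp5sl without resting replicate 1 or LPS replicate 1 or 2 (up to 0.118).

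Without the 2 libraries that stood apart, 28 members were higher and 3 lower in the KO response, or 39.2% of the members. This was near the share of all genes called in that fit, 44.2%, which was itself 26.9% with all libraries. Leaving out the resting 3′F library alone gave 15 calls beside 33.6% of all genes, and leaving out the resting KO library alone 13 beside 35.2%. The calls were spread over all 5 complexes: 10 higher and 1 lower of 36 in complex I, 2 higher of 4 in complex II, 2 higher of 8 in complex III, 8 higher and 1 lower of 14 in complex IV and 6 higher of 15 in complex V. Ndufs4 led them at 0.72 (SE 0.11, adjusted p = 5.5e-05). Its levels were 28.6, 31.5 and 41.2 CPM in resting KO libraries and 51.6, 53.5 and 51.1 CPM with LPS, against 46.0, 34.9 and 39.0 and then 48.8, 52.6 and 52.2 CPM in WT. With all libraries the same gene stood at 0.63 (SE 0.24, adjusted p = 0.0597), which was not a call. The members that fell without those libraries were Cox7a2l (-0.46), Ndufa6 (-0.33), a subunit near the ubiquinone site of complex I, and Atp5sl (-0.59). Of complex II, Sdhb stood at 0.37 (adjusted p = 0.0149) and Sdhd at 0.33 (adjusted p = 0.0493) in that fit, and Sdha at 0.09 and Sdhc at 0.17 were not called.

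In 3′F macrophages 2 members rose with LPS and 5 fell, beside 31.2% of all tested genes called. Cox6a2 and Cox5a rose, and Ndufb2, Atp5s, Cox7c, Uqcrh and Ndufb5 fell. Leaving out resting 3′F replicate 3 alone gave 2 higher and 0 lower. The share of all genes called is given below for the fit without that library and the resting KO one. Ndufb2, an accessory subunit of the membrane arm of complex I, stood at 30.1, 35.1 and 161 CPM in the resting libraries and at 28.2, 26.6 and 23.9 CPM with LPS. The third resting library was more than 4 times the others, and the fitted change was -1.47 (SE 0.43, adjusted p = 0.0172, edgeR). Uqcrh, the hinge protein of complex III, stood at 103, 116 and 244 CPM and then at 98.6, 94.4 and 92.6 CPM (-0.69, SE 0.23, adjusted p = 0.0342). Cox7c (63.2, 73.1 and 191 CPM at rest) and Ndufb5 (51.5, 59.6 and 104 CPM at rest) had the same shape.

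Without that library and the resting KO one, 4 members rose in 3′F and 0 fell, 5.06% of the members beside 35.1% of all genes, and the median member moved from -0.23 to 0.08. Ndufb2 then stood at -0.35 (adjusted p = 0.0695), Uqcrh at -0.24 (adjusted p = 0.13) and Atp5s at -0.76 (adjusted p = 0.0777), none of them a call. Cox5a, at 78.9, 78.9 and 88.3 CPM at rest and 98.1, 98.3 and 104 CPM with LPS, rose by 0.29 (SE 0.10, adjusted p = 0.0325, edgeR) with all libraries and by 0.30 (adjusted p = 0.00397) without the pair. With all libraries the Cox5a call was lost when any 3′F library other than resting replicate 3 was left out (adjusted p from 0.0616 to 0.0923). Cox6a2, which is described further on with its counts, rose by 1.82 (SE 0.58, adjusted p = 0.0256), and its states overlapped. Ndufa11 and Ndufs4 also rose in that fit of 16 libraries, at 0.33 and 0.34. Ndufc2 was not called in 3′F (0.08, 95% interval -0.17 to 0.33), although this does not show that 3′F differed from WT. With the shared letter as a block, the 3′F response held 2 calls, 1 in each direction, and among the fits that left out 1 library the count ran from 1, without LPS replicate 2 or 3, to 28, all lower, without resting replicate 1, where 31.2% of all genes were called.

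**Figure D4:**
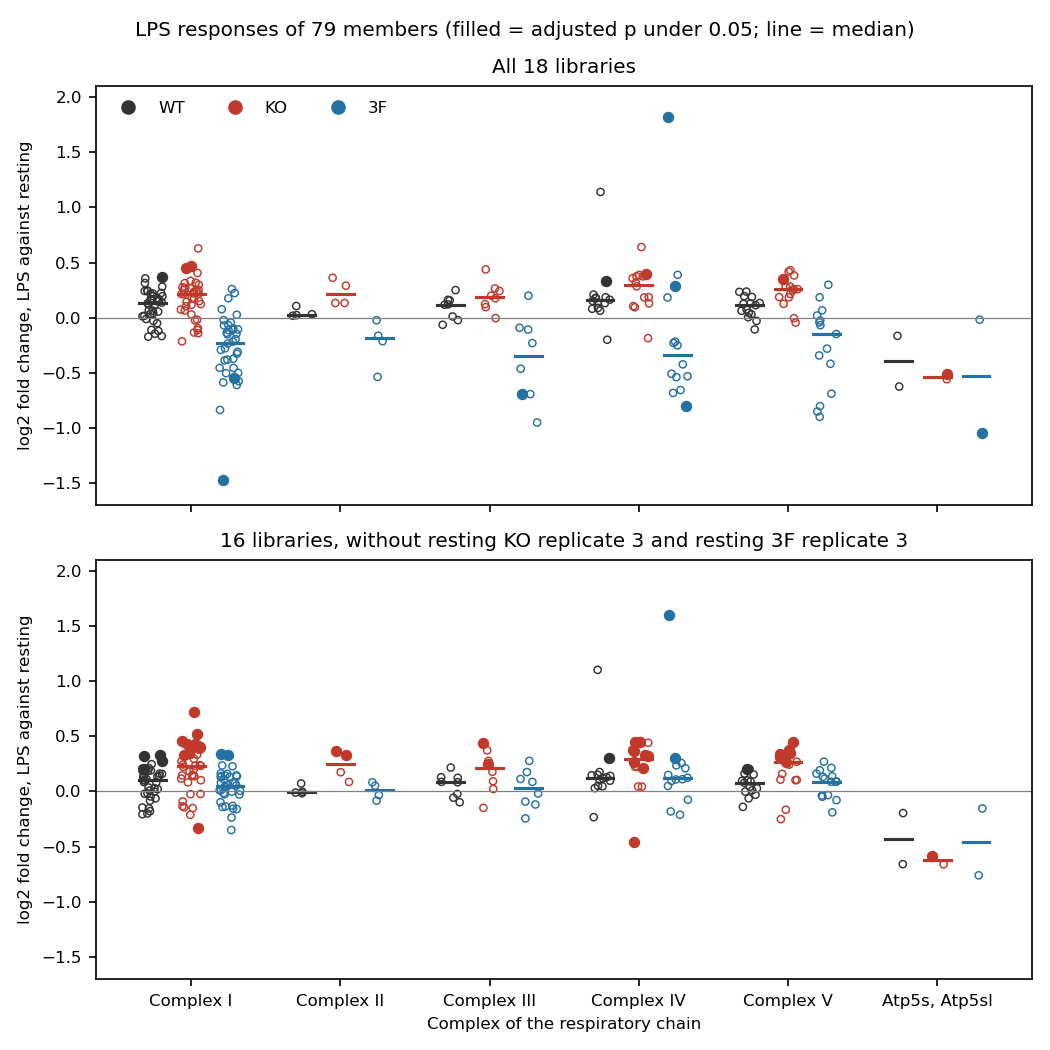
Each point is 1 tested member's log2 change with LPS (LPS minus resting), by complex and genotype, in the fit of all 18 libraries (first panel) and of 16 (second panel). Filled points have an adjusted p under 0.05 and the line is the median, which in 3′F lies at -0.23 with 18 libraries and at 0.08 with 16.

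In the fit of all libraries Cox5a was thus the only member called in the LPS response of all 3 genotypes, with rises of 0.33, 0.40 and 0.29 on the log2 scale. It kept its direction and its call in each of them without the pair of libraries, where Ndufs4 was called in all 3 as well. Under other settings the Cox5a call was lost in WT and in 3′F, as given above.

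Whether the LPS response of the members differed between genotypes was tested directly. No member was called for the difference between the KO and WT responses, beside 0.00881% of all tested genes called (edgeR quasi-likelihood test). No member reached an unadjusted p under 0.05 there, beside 4.93% of all tested genes, and DESeq2 and limma-voom called 0 members. For the 3′F and WT responses no member was called either, beside 0% of all genes. At an unadjusted p under 0.05 there were 2 members, beside 1.79% of all genes, and DESeq2 and limma-voom called 0. The interval of the KO minus WT difference lay within 1 log2 unit for 63 of the 79 members, and within 0.5 for 13. Cox5a, for example, stood at 0.07 (95% interval -0.22 to 0.36). Without the pair of libraries the count was again 0 in both tests, beside 0.289% of all genes for KO and 0% for 3′F.

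Next, the genotypes were set against each other within a state. At rest 1 member was called between KO and WT, beside 9.4% of all tested genes. This was Cox6a2, higher in KO, whose product takes the place of Cox6a1 in heart and skeletal muscle. It was read at 0.525, 0.452 and 0.290 CPM in resting WT, at 2.41, 1.22 and 1.35 CPM in resting KO and at 0.226, 0.464 and 0 CPM in resting 3′F. Every KO library was above every WT and 3′F library, and KO minus WT was 1.94 (SE 0.52, adjusted p = 0.0273, edgeR). After LPS it stood at 1.05, 0.682 and 1.17 CPM in WT, at 2.82, 2.90 and 2.21 CPM in KO and at 1.47, 1.26 and 0.257 CPM in 3′F, and KO minus WT was 1.45 (SE 0.45, adjusted p = 0.0733). The groups again did not overlap, although the difference missed the threshold. Between KO and WT, 26.8% of all tested genes did not overlap at rest and 33.0% after LPS. The call at rest was lost without any of the WT libraries (adjusted p from 0.0673 to 0.0909) or without KO replicate 1 (1.55, adjusted p = 0.121).

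These values rest on few reads, since Cox6a2 had at most 41 counts in a library. Its gene (chr7:128205435-128206387, minus strand, GRCm38) also overlaps Itgad, an integrin gene, on the opposite strand. Itgad had 1 to 8 counts in the WT and 3′F libraries and 36 to 171 in the KO libraries, and KO minus WT was 4.56 (SE 0.51, adjusted p = 0.000142) at rest and 5.19 (SE 0.48, adjusted p = 1.9e-05) after LPS. Counting was by strand. In LPS-treated WT libraries Cox6a2 had 10 to 16 counts where Itgad had 4 or 5, whereas in KO libraries Itgad had the higher count throughout. The part of Itgad in the Cox6a2 difference was not tested.

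Cox7a2, the widely expressed form of a small complex IV subunit, had its lowest values in KO in both states. It stood at 147, 105 and 107 CPM in resting WT and at 69.8, 73.7 and 97.5 CPM in resting KO, and after LPS at 126, 140.2 and 141 CPM in WT and at 97.6, 101 and 94.6 CPM in KO. No KO library reached a WT library of its state. Of the 79 members, 14 had no overlap at rest and 16 after LPS, beside 26.8% and 33.0% of all tested genes. In the fit of all libraries KO minus WT was -0.58 (SE 0.27, adjusted p = 0.2, edgeR) at rest and -0.48 (SE 0.26, adjusted p = 0.381) after LPS, neither of them a call. Without the pair of libraries it was -0.72 (SE 0.12, adjusted p = 0.00186) and -0.49 (SE 0.11, adjusted p = 0.00673), both past the threshold. Leaving out resting 3′F replicate 3 alone gave -0.57 (adjusted p = 0.00962) at rest and -0.49 (adjusted p = 0.0285) after LPS. The 3′F libraries stood at 126, 125 and 136 CPM after LPS.

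Without that pair, 10 members were lower in KO and 1 higher in the comparison with WT at rest, 13.9% of the members beside 14.6% of all genes, so the members' share was near the background. The 10 were Cox7a2, Ndufa12 (-0.56), Uqcrq (-0.53), Cox7b (-0.46), Ndufa9 (-0.40), Ndufs4 (-0.39), Cox5b (-0.38), Atp5o (-0.38), Atp5f1 (-0.31) and Ndufa4 (-0.27). Ndufa12 and Ndufa9 are accessory subunits of complex I, Uqcrq of complex III, Cox5b and Cox7b of complex IV, and Atp5o and Atp5f1 are parts of the stalk of the ATP synthase. Ndufa4 stood at 86.4, 83.3 and 75.1 CPM in resting WT and at 66.3, 67.3 and 70.2 CPM in resting KO, with the KO library that was left out also below every WT library.

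After LPS no member was called between KO and WT, beside 4.79% of all tested genes (edgeR quasi-likelihood test). At an unadjusted p under 0.05 there was 1 member, DESeq2 called 1 member and limma-voom 3. The median member stood at -0.05, and the 95% interval lay within 1 log2 unit for 73 members. Without the pair of libraries Cox6a2 (1.43, adjusted p = 0.0236) and Cox7a2 were called, beside 14.2% of all genes.

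**Figure D5:**
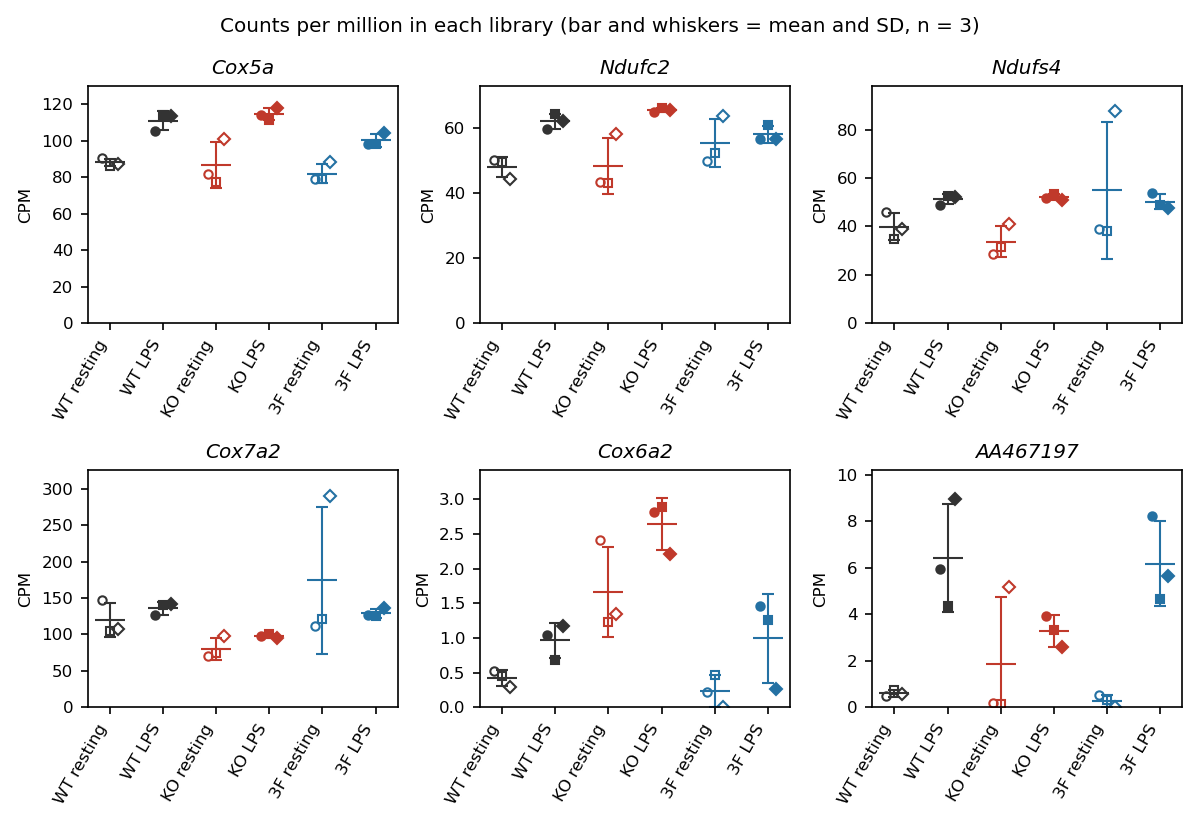
CPM per library for Cox5a, Ndufc2, Ndufs4, Cox7a2, Cox6a2 and AA467197 in the 6 groups, with mean and SD (n = 3). Open symbols are resting and filled symbols LPS-treated libraries, and circle, square and diamond mark replicates 1, 2 and 3. Cox7a2 in KO lies below WT in both states, Cox6a2 in KO lies above it, and resting 3′F replicate 3 is highest of its group in Ndufs4 and Cox7a2.

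Between 3′F and WT no member was called in either state, beside 0% of all tested genes at rest and 0.00881% after LPS (edgeR quasi-likelihood test). At rest 14 members reached an unadjusted p under 0.05, beside 4.90% of all tested genes, and after LPS 0, beside 0.933%, and DESeq2 and limma-voom called 0 members in both. At rest the median member stood at 0.25 with resting 3′F replicate 3 and at -0.05 without the pair of libraries. After LPS the median was -0.07, the members ranged from -0.24 to 0.14, and the interval lay within 1 log2 unit for 76 of the 79.

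KO and 3′F, the pair of engineered alleles, were compared last. At rest 1 member was higher in KO and 8 were lower, beside 12.9% of all tested genes called. Cox6a2 was higher (2.48, SE 0.56, adjusted p = 0.0113, edgeR). Those lower were Cox7a2 (-1.11, adjusted p = 0.0162), Cox6c, Cox7b, Ndufb2, Ndufb4, Ndufb5, Ndufb11 and Ndufs6, all small subunits of complexes I and IV. Leaving out resting 3′F replicate 3 alone gave 1 higher and 1 lower. The share of all genes called is given below for the fit without the pair of libraries. Cox6c stood at 101, 101 and 294 CPM in resting 3′F and at 84.4, 84.5 and 87.2 CPM in resting KO, and Ndufb4 at 31.1, 36.3 and 84.7 CPM against 27.8, 24.3 and 26.3 CPM.

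Without the pair of libraries Cox6a2 (2.42, adjusted p = 0.0205) and Cox7a2 (-0.67, SE 0.13, adjusted p = 0.00815) were called, 2.53% of the members beside 6.56% of all genes. The other 7 ranged from -0.41 for Ndufs6 to -0.21 for Ndufb5 and were not called. With the letter as a block across genotypes, which joins libraries of different mice, and all libraries, 4 members were called, 1 higher and 3 lower. Leaving out 1 library gave from 1 call, without KO replicate 1, to 39, without 3′F replicate 1, where 15.7% of all genes were called. After LPS no member was called between KO and 3′F, beside 3.88% of all tested genes. At an unadjusted p under 0.05 there were 2 members, beside 16.9% of all genes, with 0 called by DESeq2 and 5 by limma-voom. Without the pair, Ndufs3 (0.26, adjusted p = 0.0465) and Cox6a2 (1.27) were higher in KO and Cox7a2 (-0.41, adjusted p = 0.0204) was lower. In that fit 12.2% of all genes were called. The comparisons with WT and with 3′F share their KO libraries.

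Over the 11 comparisons with all libraries, 17 members, 21.5%, were called in at least 1 and 62 in none, beside 47.9% of all tested genes called in at least 1.

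The subunits encoded in the mitochondrion were read beside their nuclear partners. Of 13 such genes, 8 are in the table (mt-Nd1, mt-Nd2, mt-Nd3, mt-Nd5, mt-Nd6, mt-Co1, mt-Co2 and mt-Cytb), and none was called in any of the 11 comparisons (edgeR quasi-likelihood test). Their median change with LPS was -0.28 in WT, -0.14 in KO and -0.16 in 3′F. At an unadjusted p under 0.05 there were 0 in WT, 0 in KO and 2 in 3′F. All tested genes stood at 38.9%, 37.8% and 42.3%. KO minus WT had a median of -0.34 at rest and -0.18 after LPS, and 3′F minus WT of 0.11 and 0.20. KO minus 3′F had a median of -0.42 at rest, with 4 of the 8 at that threshold beside 31.4% of all tested genes. After LPS it was -0.49, with 2 of the 8 beside 16.9%. Library preparation removed ribosomal RNA and did not select poly(A) tails.

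Among 11 nuclear partners that the name rule leaves out, 1 rose and 1 fell with LPS in WT. Another 1 rose in KO and 1 in 3′F. Of all tested genes, 28.5% were called in WT, 26.9% in KO and 31.2% in 3′F. Etfdh, which passes electrons from fatty acid oxidation to ubiquinone, fell in WT by 0.28 (adjusted p = 0.0424, edgeR), and Slc25a4, an ADP/ATP carrier of the inner membrane, rose in KO by 0.41 (adjusted p = 0.0202). AA467197 rose in WT and 3′F. This gene, a paralogue of Ndufa4 known in human as C15orf48 or NMES1, encodes a protein that can replace Ndufa4 in complex IV during inflammation. It stood at 0.460, 0.753 and 0.580 CPM in resting WT and at 5.93, 4.37 and 8.94 CPM after LPS, a rise of 3.41 (SE 0.83, adjusted p = 0.00595, edgeR). In 3′F it went from 0.508, 0.290 and 0 CPM to 8.21, 4.66 and 5.64 CPM (4.12, SE 0.92, adjusted p = 0.00316). In KO it stood at 0.185, 0.153 and 5.16 CPM at rest and at 3.93, 3.33 and 2.57 CPM with LPS, and the change was 1.04 (adjusted p = 0.345). The library labelled resting KO replicate 3 was above every LPS-treated KO library in this gene. Without it the KO change was 4.19 (adjusted p = 3.3e-05). Ndufa4 itself was not called with LPS in any genotype in the fit of all libraries (0.14 in WT, 0.32 in KO and -0.23 in 3′F), and without the pair it was called in KO alone, at 0.27 (adjusted p = 0.0114). The KO and WT responses of Ndufa4 were not called different.

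Of 41 tested assembly factors, 3 rose and 0 fell with LPS in WT, and 2 rose and 0 fell in KO. In 3′F 3 rose and 3 fell. Of all tested genes, 28.5% were called in WT, 26.9% in KO and 31.2% in 3′F. Coa5, needed to build complex IV, rose in all 3. It stood at 94.8, 113 and 104 CPM in resting WT and at 214, 182 and 266 CPM after LPS (1.09, SE 0.20, adjusted p = 0.000786, edgeR), and the change was 0.81 (adjusted p = 0.00611) in KO and 1.02 (adjusted p = 0.00117) in 3′F. Cox15, which makes heme A for complex IV, rose in WT (0.68) and 3′F (0.88), as did the membrane insertase Cox18 (1.24 and 0.99), and the copper chaperone Sco1 rose in KO (0.66). Lyrm7, which helps insert the iron-sulfur subunit of complex III, was lower in resting KO than in resting WT. It stood at 0.0618, 0.153 and 0 CPM against 0.460, 0.678 and 1.06 CPM (-3.05, SE 0.87, adjusted p = 0.037, edgeR), levels near the floor. After LPS 0 assembly factors were called between KO and WT, beside 4.79% of all tested genes. Lyrm7 lies at chr11:54826866-54860916, on the chromosome of mir-146a, and what the engineered line still carries there was not tested.

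Among 15 tested regulators of mitochondrial biogenesis, Esrra and Ppargc1b, a nuclear receptor and its coactivator that drive respiratory genes, rose in all 3 genotypes. Esrra stood at 40.6, 31.0 and 32.3 CPM in resting WT and at 68.6, 56.0 and 69.8 CPM after LPS (0.90, SE 0.15, adjusted p = 0.00043, edgeR), with 1.05 in KO and 0.78 in 3′F. Ppargc1b rose by 0.86 in WT, 0.97 in KO and 1.55 in 3′F. Hif1a, the oxygen-responsive factor, rose in WT (0.67) and 3′F (0.83). Polrmt and Polg, the polymerases that copy mitochondrial DNA into RNA and DNA, fell in WT by 0.51 and 0.41, Polg and the helicase Twnk fell in KO by 0.49 and 0.66, and Myc fell in KO by 2.07 and in 3′F by 1.37. In all, 3 regulators rose and 2 fell in WT, 2 rose and 3 fell in KO, and 3 rose and 1 fell in 3′F. These counts among 15 regulators stood beside 28.5%, 26.9% and 31.2% of all tested genes called.

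Of 18 genes of the tricarboxylic acid cycle and pyruvate dehydrogenase, 1 rose and 1 fell with LPS in WT. In KO 3 rose and 0 fell, and in 3′F 2 rose and 2 fell. Of all tested genes, 28.5% were called in WT, 26.9% in KO and 31.2% in 3′F. Citrate synthase (Cs) rose in WT (0.31) and 3′F (0.50), and Idh2, the mitochondrial NADP-dependent isocitrate dehydrogenase, fell in WT by 0.47 and in 3′F by 0.77. The 78 tested ribosomal protein genes, also short, gave 34 calls lower and 1 higher with LPS in 3′F (median -0.55), where WT had 2 higher and KO 1 in each direction. The 3′F count includes resting 3′F replicate 3, where these genes took 5.81% of counts against 2.04% to 3.03% elsewhere, and it is not given without that library. The counts of nuclear partners, assembly factors, regulators and cycle genes are likewise of the fit of all 18 libraries.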

How the data were processed

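Counts per gene were deposited for 18 libraries of BMDMs, 3 in each of 6 groups, with totals of 4071084 to 19818043 counts. The authors prepared ribosomal RNA-depleted stranded libraries, trimmed reads with cutadapt 1.8.3, aligned them to mm10 with HISAT2 2.1.0 and counted them by strand with featureCounts 1.5.3 on Gencode annotation, keeping reads of high mapping quality, so that genes with near-identical copies may be undercounted. Of the 85 members, 12 overlap another annotated gene on the same strand.

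Groups came from the sample labels. In R 4.3.3, genes were filtered with filterByExpr (minimum count 10, minimum total 15), scaled by TMM and fitted with edgeR 4.0.16 (glmQLFit, glmQLFTest), with all 18 libraries in 1 fit of 6 group means. The methods of the study give no test of single genes. Benjamini-Hochberg adjustment ran over the 11357 tested genes, and adjusted p under 0.05 made a call. CPM are counts scaled to a TMM library size of 1000000, and changes are log2. Tests were also run with limma 3.58.1 and DESeq2 1.42.0, and the fit was tested on simulated data: for the LPS response in WT, 19.7% of genes changed by 0.5 on the log2 scale were recovered, 67.2% at 1 and 94.0% at 2. The simulation changed 66 genes by 0.5 and 67 each by 1 and 2 among 11236, with 6 false calls. In the data 28.5% of genes were called, and the simulation held no library that stands apart, so these shares may not carry over.

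Named were the succinate dehydrogenase genes, the tissue forms of complex IV, the c subunit genes, AA467197 and, per comparison, up to 5 called members in each direction by size of change, and any other gene was picked once its values were known. The members, lists and this rule were chosen with earlier results of these data known. Gene positions are from GENCODE M21 (GRCm38), and microRNA and promoter sequences from RefSeq. Between replicate libraries of the same group the chi-square per degree of freedom was 7.19 to 114, above sampling noise, so each was counted as its own sample within its group. These values do not compare resting with LPS-treated libraries, so they cannot show that the states are independent. The labels give fewer mice than libraries per genotype, so the states share mice, and the main fit did not pair them. Alternatives were another scaling, no filter, other tools, fits of the compared groups alone, a replicate block, a length correction and leaving out libraries.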

Additional observations from a re-analysis of the deposited data

How the results depend on the processing

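The number of members called moved with the processing, and shares in parentheses are those of all tested genes called in the same fit. The median member changed sign in some fits. It went from -0.23 to 0.08 in the 3′F response without resting 3′F replicate 3 and with limma-voom, from 0.25 to -0.05 in 3′F against WT at rest without that library, from 0.09 to -0.02 in the difference of the KO and WT responses without resting WT replicate 1, and from 0.12 to -0.01 in the WT response with upper-quartile scaling. For KO against 3′F after LPS, at 0.01, it went to -0.05 with upper-quartile scaling, to -0.01 in a fit of only those groups and to -0.03 without 3′F LPS replicate 2. With upper-quartile scaling the counts were 0 for the LPS response in WT (30.5%), 3 in KO (27.9%) and 22 in 3′F (35.6%), and 23 for KO against 3′F at rest (14.1%). With no filter on low counts they were 0 in WT (13.8%) and 3 in KO (13.1%). DESeq2 gave 16 for the 3′F response (34.4%), 1 for KO against WT after LPS (8.66%) and 29 for KO against 3′F at rest (18.5%). Limma-voom with quality weights, which weighs down libraries that stand apart, gave 15 in WT (45.9%), 54 in KO (53.5%) and 14 in 3′F (48.2%). It gave 8 (19.9%) and 3 (15.6%) for KO against WT at rest and after LPS, and 18 (25.7%) and 5 (16.2%) for KO against 3′F. A fit of only the groups compared gave 11 in KO (22.9%), 0 in 3′F (22.4%), 0 (3.65%) and 2 (9.46%) for KO against WT, and 0 (0.146%) and 1 (15.2%) for KO against 3′F. A correction for gene length gave 0 in WT (30.3%), 9 in KO (28.7%), and 2 (10.9%) and 1 (6.20%) for KO against WT.

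Chosen after seeing the data, leaving resting 3′F replicate 3 out of fits of other groups gave 15 in KO (33.6%), and 5 (14.1%) and 2 (8.54%) for KO against WT. Leaving out the library labelled resting KO replicate 3 as well gave 6 in WT (41.9%), 31 in KO (44.2%), 4 in 3′F (35.1%), 11 (14.6%) and 2 (14.2%) for KO against WT, and 2 (6.56%) and 3 (12.2%) for KO against 3′F. Leaving out in turn each library of the groups a comparison is between gave 0 to 2 calls in WT, 1 to 13 in KO, 1 to 28 in 3′F, 0 to 1 for KO against WT at rest and 1 to 39 for KO against 3′F at rest, and 0 in each such fit for the other comparisons. The cause of these shifts was not tested.

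With the letter shared by resting and LPS-treated libraries of a genotype as a replicate block, the 3′F response held 2 calls (29.3%), the KO response 4 and the WT response 2. Cox5a in 3′F (adjusted p = 0.0507), Atp5g3 (0.0592) and Atp5sl (0.0549) in KO lost theirs. For KO against 3′F at rest the block was the letter across genotypes, which joins libraries of different mice, and 4 members were called (11.3%). Same-lettered libraries of a genotype had deviations that correlated at 0.03 to 0.32, over 0.1 in 5 of 9 pairs. Those of different genotypes correlated at -0.29 to 0.21. Resting and LPS-treated libraries of a genotype share mice, but the labels do not state whether the same letter marks the same mouse. Depth limits Cox6a2 most, at 0 to 41 counts per library.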

Other observations

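Ndufs5, an accessory subunit of complex I, was uneven within KO, and it was picked after its values were seen. It stood at 19.2, 12.8 and 16.6 CPM in resting KO libraries and at 25.3, 15.2 and 13.4 CPM after LPS, beside 19.9 to 22.3 and 23.0 to 26.9 CPM in WT. KO minus WT was -0.35 (SE 0.25, adjusted p = 0.437, edgeR) at rest and -0.49 (SE 0.24, adjusted p = 0.314) after LPS.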
